A study of Saccharomyces cerevisiae with 40 samples.

Results

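The 40 genes followed here encode subunits of the mitochondrial respiratory chain and of ATP synthase in the budding yeast Saccharomyces cerevisiae, and all are nuclear genes. They were picked by gene name, by a rule without measured values, though earlier results of these data were known by then. The 40 comprise 9 genes of cytochrome c oxidase (complex IV), 9 of the cytochrome bc1 complex (complex III) and 2 of cytochrome c. The others are 4 of succinate dehydrogenase (complex II), 13 of ATP synthase and 3 of the NADH dehydrogenases that stand in for complex I in this yeast. Each of the 40 had a row among the 7127 genes of the steady-state and labeled RNA tables and among the 6613 genes of the ribosome profiling tables, and all 40 passed the low-count filter in every comparison.

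The study asked how loss of Def1, known for removing stalled RNA polymerase II, alters RNA synthesis, decay and translation. All cells were W303 yeast grown to log phase in rich dextrose medium. Steady-state total RNA came from untreated def1Δ and WT cells mixed with Schizosaccharomyces pombe cells before extraction (2 libraries each). RATE-Seq libraries held RNA that def1Δ and WT cells made in the presence of 4-thiouracil (4tU), captured after 6, 9, 24 and 90 min (2 libraries per strain and time) and after 12 min (1 library per strain in the table). These cells were mixed before extraction with S. pombe cells that had themselves been labeled with 4tU. Ribosome profiling covered def1Δ, dhh1Δ and WT cells treated with cycloheximide and broken by cryo-milling, with 3 input RNA libraries and 3 footprint columns per strain; Dhh1 is a decapping activator. The footprint columns are numbered by barcode while the labels number sequencing runs, so a test on them measures the spread between barcodes and may be technical, and the 3 dhh1Δ columns belong to 1 labelled sample and are given as values with no test.

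In yeast, electrons from NADH enter the chain through Ndi1 inside the mitochondrion and through Nde1 and Nde2 on its outer side, none of which pumps protons. Succinate enters through complex II, and both routes reach complex III through ubiquinone, then cytochrome c and complex IV, where oxygen is reduced. ATP synthase uses the proton gradient. Core catalytic subunits of complexes III and IV and part of the membrane sector of ATP synthase are made from the mitochondrial genome, so each of these complexes joins products of both genomes. On dextrose, yeast ferments and keeps respiratory genes low, and the Hap2/3/4/5 factor, which binds CCAAT, is known to activate many of them when dextrose runs out. Several components come as isoform pairs in which the minor form is made at low oxygen: Cox5b beside Cox5a, and Cyc7 (iso-2-cytochrome c) beside Cyc1 (iso-1-cytochrome c).

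The 5′ flanks of the 40 genes were searched for the CCAAT letters in the S288C reference genome (RefSeq, build R64); the strains themselves are W303. In the 400 bases before the start codon, CCAAT stood on either strand in 35 of the 40 (87.5%) and in 52.8% of 6008 genes. The longer form TNATTGGT, which holds CCAAT on its reverse strand, stood in 18 of the 40 (45%) and in 6.99% of genes; this form was added after the values were seen. CCAAT was absent from this window before COX4, which was lower in def1Δ steady-state RNA. It was also absent before CYC7 and NDE2, which were higher in def1Δ input RNA. The sites below were picked from genes that held the letters. The first 6 stood before genes that were lower in def1Δ steady-state RNA. The others stood before ATP14 and NDI1, which were higher in def1Δ input RNA. Capitals mark the matched letters, read 5′ to 3′ on the gene's strand.
COX5A, chrXIV:531543-531571, plus strand, core form: tgcaaaaatcgtCCAATagacgttttcct
COX8, chrXII:910149-910178, minus strand: aaacggtttgcACCAATCAtacgagagaag
COX12, chrXII:225360-225389, minus strand: tcataacattgACCAATCAattttcagaaa
ATP3, chrII:315368-315397, plus strand: cgtgatggagaACCAATGAgcggcgagtaa
ATP17, chrIV:1228370-1228399, plus strand: ttacggagagaACCAATCAtatcgaaggat
ATP19, chrXV:185291-185320, plus strand: gatctcgatggTGATTGGTcagagtccgct
ATP14, chrXII:722553-722582, minus strand: gccatacacgaACCAATTAtgcatcataaa
NDI1, chrXIII:30017-30046, minus strand: tattcattcggACCAATCAtatgaaggcat

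The Hap1 motif, a pair of CGG triplets with TA between them, stood in the same window in 1 of the 40 (2.5%), QCR6, against 0.233% of genes. In QCR6 it read agcacgttcCGGGCATATCGGactggggcg on the minus strand at chrVI:224974-225003. The Puf3 letters TGTANATA, searched on the sense strand in the 200 bases after the stop codon, stood in 5 of the 40 (12.5%), against 14.0% of genes. Those of COX8, which fell in steady-state RNA and at every labeling time tested, read ggatagatgtgTGTACATAgcgtgcttggt at chrXII:909679-909708, minus strand. A match is a match of letters only; binding was not measured.

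Library totals ran from 9954503 to 14243535 counts in steady-state RNA, from 6026474 to 16318100 in labeled RNA, from 14894073 to 45654269 in input RNA and from 1984692 to 8635312 in footprints. DEF1 had 2 counts in each def1Δ steady-state library, against 997 and 1959 counts in WT. In the libraries labelled dhh1Δ, DHH1 still had 78.0, 65.0 and 85.1 CPM of input RNA (counts per 1000000 of the scaled library), against 305, 255 and 216 CPM in WT. The input RNA labelled dhh1Δ carried MATα marker transcripts at a sum of 1990 to 2280 CPM over 4 genes and MATa markers at 38.4 to 45.6 CPM over 7 genes, whereas WT input RNA held 34.3 to 39.2 CPM and 1640 to 1880 CPM of the same markers, so the dhh1Δ genotype and mating type cannot be told apart. def1Δ and WT libraries both carried MATa markers, although the study's strain list gives W303 as MATα.

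The def1Δ steady-state libraries also stood apart in their mitochondrial transcripts, and the steady-state values below come from these same libraries. COX1, the catalytic core of complex IV, had 0.726 and 0.684 CPM in def1Δ steady-state RNA and 457 and 545 CPM in WT. COB, cytochrome b of complex III, had 0.623 and 0.608 CPM in def1Δ and 1060 and 1020 CPM in WT, and OLI1, the rotor ring of ATP synthase, had 1.97 and 1.14 CPM in def1Δ and 1080 and 941 CPM in WT. ATP6 had no count in either def1Δ library and 289 and 385 counts in WT. These 4 transcripts were thus at or near 0 in both def1Δ steady-state libraries, but not every mitochondrial transcript was: COX3 stood higher there, at 1430 and 1340 CPM in def1Δ and 611 and 562 CPM in WT, while COX2 stood at 276 and 241 CPM in def1Δ and 479 and 432 CPM in WT. The def1Δ cultures labeled for 90 min carried COX1 at 145 and 150 CPM, against 324 and 355 CPM in WT, and def1Δ input RNA carried it at 119, 150 and 200 CPM, against 213, 209 and 197 CPM in WT. The part that this difference between cultures played in the steady-state results was not tested.

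**Figure D1:**
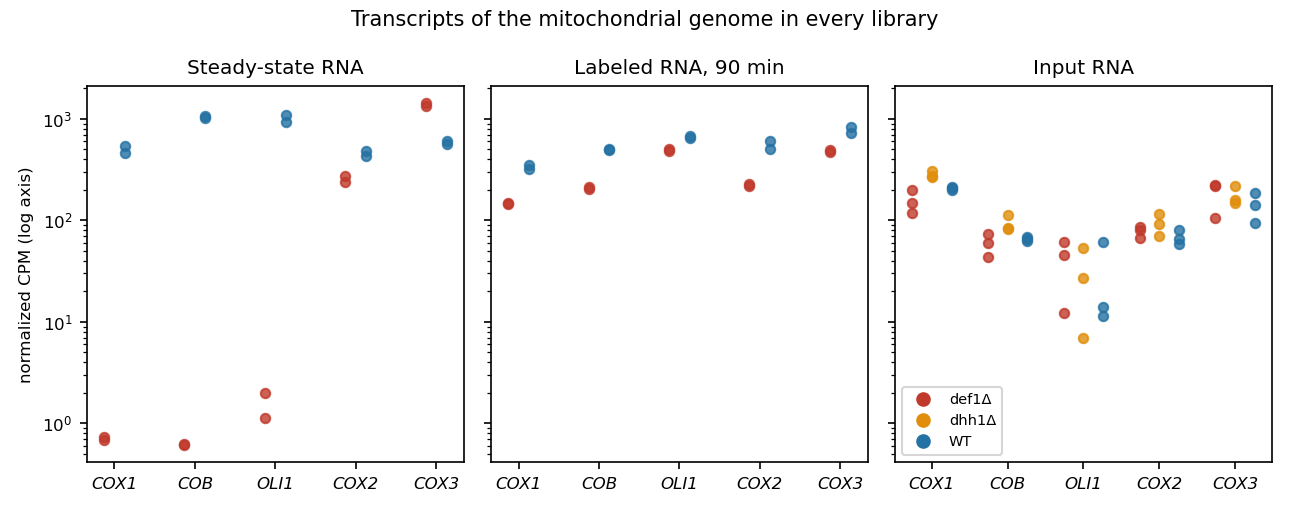
Levels of 5 transcripts of the mitochondrial genome (COX1, COB, OLI1, COX2, COX3) in CPM on a log axis, in steady-state RNA, 90 min labeled RNA and input RNA. Each point is a library, with def1Δ left of WT, and in input RNA def1Δ, dhh1Δ, then WT. COX1, COB and OLI1 stood between 0.608 and 1.97 CPM in the def1Δ steady-state libraries and between 457 and 1080 CPM in the WT libraries, whereas def1Δ and WT both carried them in the other experiments.

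In steady-state RNA, respiratory chain and ATP synthase transcripts were lower in def1Δ cells than in WT cells, most of all those of complex IV and ATP synthase. Of the 40 genes, 11 fell and 0 rose by the rule of an adjusted p under 0.01 and a change of more than 2-fold, against 9.68% of all 6055 genes tested that fell and 8.72% that rose. Both def1Δ libraries stood below both WT libraries in 29 of the 40, against 36.8% of all genes. The median log2 fold change of the 40 was −0.76, and that of all genes 0.04. At any size of change with an adjusted p under 0.05, 25 fell and 3 rose, against 23.7% and 25.3% of all genes; 32 differed by an unadjusted p under 0.05, against 56.2% of genes, and DESeq2 called 13 lower and 1 higher, against 10.1% and 8.14%. Summed over the 40 genes, the transcripts took 0.229% and 0.220% of the counts in def1Δ libraries and 0.394% and 0.409% in WT libraries. A culture is a bulk sample, so fewer cells with a transcript and less of it per cell cannot be told apart.

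The lowest ratio belonged to COX5A (YNL052W; chromosome XIV, 531725 to 532186, plus strand), the aerobic isoform of subunit V of complex IV. COX5A had 7.99 and 9.05 CPM in def1Δ and 49.0 and 39.4 CPM in WT. It was 5.15-fold lower in def1Δ (log2 fold change −2.36 ± 0.16 SE, adjusted p = 3.8e-05, n = 2 libraries per strain in edgeR's quasi-likelihood test). Its low-oxygen isoform COX5B (YIL111W) had 6.43 and 7.07 CPM in def1Δ and 5.37 and 3.79 CPM in WT, which did not pass the test. Per base of coding sequence, COX5A was 1.23 and 1.26 times COX5B in def1Δ and 8.99 and 10.2 times in WT. COX5B therefore made up 44.9% and 44.2% of the pair in def1Δ and 10.0% and 8.89% in WT. The 2 genes share 66.4% of aligned coding positions, with no identical run longer than 12 bases. The cytochrome c pair, CYC1 and CYC7, shares 77.0%, with a longest identical run of 35 bases. Whether reads common to CYC1 and CYC7 moved their values below, footprints included, was not tested.

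COX4 (YGL187C; chromosome VII, 149704 to 150171, minus strand), another nuclear subunit of complex IV, had 9.55 and 9.88 CPM in def1Δ and 43.0 and 33.7 CPM in WT, and was 3.93-fold lower (−1.98 ± 0.16, adjusted p = 6.9e-05). COX8 had 22.2 and 18.9 CPM in def1Δ and 57.2 and 48.0 CPM in WT (−1.36, adjusted p = 0.00026), and COX12 fell as well (−1.20, adjusted p = 0.0011). In all, 4 of the 9 complex IV genes fell, with a median of −1.20. COX9 and COX7 had log2 fold changes of −1.67 and −1.13 but missed the adjusted p (0.013 and 0.011).

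Both def1Δ libraries stood below both WT libraries for all 13 ATP synthase genes, and 7 of them fell by the test (median −1.14). The catalytic alpha subunit gene ATP1 had 199 and 181 CPM in def1Δ and 435 and 404 CPM in WT. ATP5, which encodes the oligomycin sensitivity protein of the peripheral stalk, had 19.8 and 20.4 CPM in def1Δ and 63.8 and 53.2 CPM in WT, a 2.9-fold fall (−1.54 ± 0.14, adjusted p = 0.00012). The falls took in catalytic head and rotor genes (ATP1, ATP3 for the gamma subunit, ATP16 for the delta subunit), the stalk gene ATP5, and genes of the membrane sector (ATP17, ATP19, ATP20), with log2 fold changes between −1.54 and −1.14. ATP2, the beta subunit gene and the most abundant of the 40 per base of coding length, had 780 and 726 CPM in def1Δ and 1530 and 1320 CPM in WT (−0.92), short of the 2-fold limit.

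No gene of complex III, complex II, cytochrome c or the NADH dehydrogenases passed the test in steady-state RNA. Within complex III, COR1, a core subunit gene, had 91.1 and 85.1 CPM in def1Δ and 158 and 141 CPM in WT, while CYT1, which encodes cytochrome c1, had 46.1 and 47.1 CPM in def1Δ and 42.0 and 37.8 CPM in WT. The 9 complex III genes had a median of −0.60. Complex II had a median of 0.02: its flavoprotein gene SDH1 had 109 and 113 CPM in def1Δ and 116 and 101 CPM in WT, and its iron-sulfur gene SDH2 had 45.2 and 43.9 CPM in def1Δ and 74.5 and 72.5 CPM in WT. SDH4 had 102 and 107 CPM in def1Δ and 85.6 and 63.8 CPM in WT. Within this complex the groups thus overlapped for SDH1 and SDH3, while def1Δ stood lower for SDH2 and higher for SDH4.

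All 3 NADH dehydrogenase genes stood above WT in both def1Δ steady-state libraries, as did 40.7% of all genes. NDI1 had 55.2 and 52.5 CPM in def1Δ and 37.1 and 40.2 CPM in WT. NDE1 had 425 and 405 CPM in def1Δ and 358 and 336 CPM in WT. NDE2 had 2.18 and 3.80 CPM in def1Δ and 1.01 and 0.484 CPM in WT, a log2 fold change of 2.05 ± 0.51 that missed the adjusted p (0.011). CYC1 had 20.2 and 16 CPM in def1Δ and 18.6 and 20 CPM in WT, and the scarcer CYC7 had 1.25 and 1.75 CPM in def1Δ and 1.42 and 1.13 CPM in WT, so both cytochrome c genes overlapped between strains.

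The number of steady-state falls depended on the libraries and on the scaling. Without def1Δ replicate 1, and likewise without def1Δ replicate 2, 6 of the 40 fell. With the factors of the S. pombe spike-in, which differ between the WT replicates (0.628 and 2.36), 36 of the 40 stood below 0, against 63.3% of all genes, with a median of −1.16 for the 40 and −0.29 for all genes, and 0 of the 40 passed the test, against 0.198% of genes that fell and 0.0165% that rose.

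**Figure D2:**
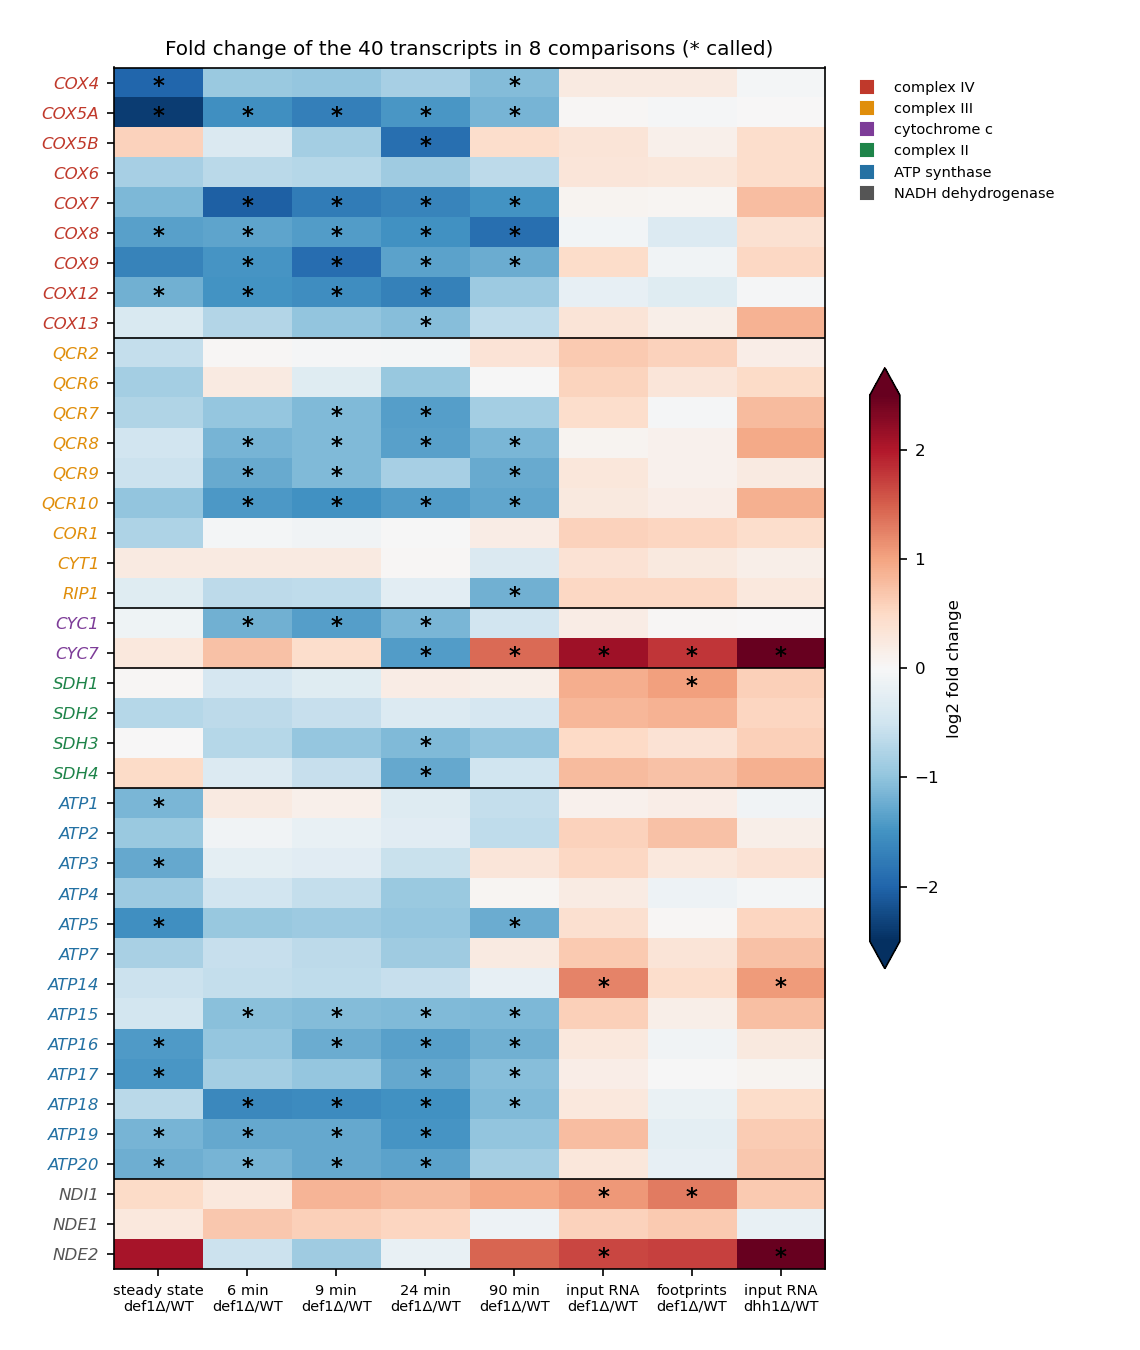
Log2 fold changes of the 40 genes, grouped by complex, over 8 comparisons of def1Δ or dhh1Δ with WT; blue is lower and red higher in the mutant, and a star marks a change that passed the test. Stars of lower level stand in complex IV and ATP synthase in the steady-state column and in every complex except the NADH dehydrogenases in the labeled columns, where CYC7 at 90 min has the star of higher level, and the input RNA and footprint columns hold only stars of higher level.

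Labeled RNA was then compared at each time, relative to the other labeled yeast RNAs. At 6 min, the nearest to new synthesis, 13 of the 40 were lower in def1Δ and 0 higher, against 9.65% and 10.9% of 6499 genes; at 9 min 15 were lower and 0 higher, against 11.4% and 13.4%. At 24 min 20 were lower and 0 higher, against 12.4% and 14.8%; at 90 min 14 were lower and 1 higher, against 13.3% and 15.6%. By an unadjusted p under 0.05, 28, 32, 35 and 32 of the 40 differed at 6, 9, 24 and 90 min, against 61.7%, 64.4%, 65.5% and 65.5% of genes, and DESeq2 called 0, 0, 0 and 1 higher. The medians of the 40 were −0.70, −0.90, −1.01 and −0.64 at 6, 9, 24 and 90 min, and those of all genes were −0.05, −0.01, 0.02 and 0.00. The 12 min libraries, 1 per strain with no test, had 37 of the 40 lower in def1Δ, 21 of them by more than 2-fold and 0 higher by more than 2-fold, against 14.6% and 18.6% of genes.

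These counts are relative to the rest of the labeled RNA. With the spike-in factors the median of all genes moved to 0.27, 0.19, 1.04 and 1.18 at 6, 9, 24 and 90 min, and that of the 40 to −0.34, −0.69, 0.01 and 0.54, so the 40 stayed below the median gene at each time. Under those factors 5, 11, 0 and 0 of the 40 fell and 1, 1, 4 and 12 rose at 6, 9, 24 and 90 min; of all genes 4.39%, 7.57%, 1.95% and 1.78% fell and 18.5%, 19.8%, 46.5% and 51.7% rose. At 90 min 6 of the 14 falls (COX4, COX5A, QCR8, ATP15, ATP17 and ATP18) then turned to values above 0. Without WT 9 min replicate 2, 8 of the 40 fell at 9 min.

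At all 4 times 8 genes were lower in def1Δ, relative to other labeled RNAs: COX5A, COX7, COX8 and COX9 of complex IV, QCR8 and QCR10 of complex III, and ATP15 and ATP18 of ATP synthase, of which COX5A, QCR8, ATP15 and ATP18 stood above 0 at 90 min with the spike-in factors. Over all genes 4.23% fell at all 4 times. At 1 time or more 24 of the 40 fell, against 22% of genes. COX5A and COX8 were the genes that fell both at all 4 times and in steady-state RNA, whereas ATP1 and ATP3 fell in steady-state RNA and at no labeling time.

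COX5A had 30.2 and 26.9 CPM in def1Δ and 77.3 and 86.4 CPM in WT after 6 min, a 2.88-fold fall (−1.52 ± 0.14, adjusted p = 1.7e-07). After 9 min it had 30 and 33.3 CPM in def1Δ and 97.5 and 111 CPM in WT (−1.72 ± 0.14, adjusted p = 4.4e-08), and after 90 min 76.4 and 73.8 CPM in def1Δ and 158 and 177 CPM in WT, a last difference that turned above 0 with the spike-in factors. Its libraries did not overlap between strains at any of these times.

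COX7, a small subunit of complex IV, had 2.16 and 1.55 CPM in def1Δ and 8.12 and 6.90 CPM in WT after 6 min. That was the lowest ratio of the 40 at this time (4.1-fold lower, −2.04 ± 0.36, adjusted p = 0.00016). ATP18, a small membrane-sector subunit of ATP synthase, had 5.26 and 3.98 CPM in def1Δ and 13.8 and 14.1 CPM in WT (3.06-fold lower, adjusted p = 0.00028). After 9 min COX9, another small complex IV subunit, had 1.70 and 2.34 CPM in def1Δ and 5.84 and 9.36 CPM in WT (3.77-fold lower, −1.91 ± 0.40, adjusted p = 0.00053), where the WT replicates lay farther apart than the def1Δ replicates. After 24 min COX12, also of complex IV, had 22.5 and 23.2 CPM in def1Δ and 65.6 and 82.4 CPM in WT (3.23-fold lower, adjusted p = 2.5e-06, and −0.64 with no call with the spike-in factors). After 90 min the largest fall was that of COX8, with 41.0 and 35.8 CPM in def1Δ and 138 and 147 CPM in WT (3.72-fold lower, −1.89 ± 0.20, adjusted p = 4e-07); with the spike-in factors it was −0.71 and did not pass. QCR10, a small subunit of complex III, had 41.8 and 34.7 CPM in def1Δ and 84.1 and 106 CPM in WT at 90 min (2.48-fold lower, adjusted p = 1.9e-05, and −0.13 with the spike-in factors). RIP1, the Rieske iron-sulfur protein of complex III, fell at 90 min alone among the 4 times, with 205 and 184 CPM in def1Δ and 409 and 489 CPM in WT.

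The low-oxygen isoforms COX5B and CYC7 were followed over the labeling times. CYC7 had 2.89 and 3.24 CPM in def1Δ and 1.45 and 2.20 CPM in WT after 6 min. After 24 min it had 5.39 and 9.57 CPM in def1Δ and 17.2 and 22.5 CPM in WT (2.62-fold lower, −1.39 ± 0.29, adjusted p = 0.00057), and after 90 min 21.3 and 15.9 CPM in def1Δ and 6.08 and 7.87 CPM in WT (2.69-fold higher, 1.43 ± 0.32, adjusted p = 0.00087). The order of the strains for CYC7 thus turned between 24 and 90 min, with no overlap at either time. The 24 min fall of CYC7 lost its call without WT replicate 2 (−1.19) or with the spike-in factors (−0.32). The 90 min rise of CYC7 lost its call without WT replicate 1 (1.24) or without def1Δ replicate 1 (1.2). COX5B had 5.13 and 5.71 CPM in def1Δ and 22.6 and 17.7 CPM in WT after 24 min, the largest fall at that time (3.72-fold, −1.89 ± 0.23, adjusted p = 2.4e-06; −0.92 and no call with the spike-in factors). After 90 min it had 17.8 and 16.3 CPM in def1Δ and 14.2 and 10.8 CPM in WT. In WT, relative to other labeled RNAs, both isoforms stood higher after 24 min than after 90 min, and in def1Δ both stood lower after 24 min than after 90 min. The same order of libraries held for ATP3, ATP4, ATP7 and NDE2, so for 6 of the 40 (15%), against 11.8% of all genes.

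The aerobic isoform CYC1 had 27.0 and 29.0 CPM in def1Δ and 64 and 65.7 CPM in WT after 6 min, 59.9 and 75.3 CPM in def1Δ and 131 and 170 CPM in WT after 24 min, and 113 and 123 CPM in def1Δ and 163 and 167 CPM in WT after 90 min. It fell by the test at 6, 9 and 24 min and not at 90 min; the 24 min call was lost without WT replicate 2 (−0.95), and those at 6 and 24 min with the spike-in factors (−0.88 and −0.09). Per base, COX5A was 4.24 and 4.48 times COX5B in def1Δ and 11 and 16.2 times in WT after 90 min, and CYC1 was 5.49 and 8.03 times CYC7 in def1Δ and 27.7 and 22.0 times in WT, so the minor isoform took a larger share in def1Δ for both pairs at this time.

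NADH dehydrogenase genes were not lower by the test at any time. NDI1 had 226 and 222 CPM in def1Δ and 189 and 184 CPM in WT after 6 min, 225 and 183 CPM in def1Δ and 122 and 112 CPM in WT after 24 min, and 139 and 125 CPM in def1Δ and 70.8 and 64.7 CPM in WT after 90 min. Its libraries did not overlap at these times, and the changes stayed under 2-fold. NDE1 had 1230 and 1140 CPM in def1Δ and 698 and 780 CPM in WT after 6 min, and 891 and 805 CPM in def1Δ and 937 and 926 CPM in WT after 90 min. NDE2 had 4.20 and 4.81 CPM in def1Δ and 1.52 and 1.80 CPM in WT after 90 min (1.45, adjusted p = 0.012), which missed the call.

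None of the 20 falls at 24 min turned above 0 with the spike-in factors, though none passed the test there. By complex, they took in 7 of 9 complex IV genes, 3 of 9 complex III genes, both cytochrome c genes, 2 of 4 complex II genes (the membrane anchors SDH3 and SDH4), 6 of 13 ATP synthase genes and 0 of 3 NADH dehydrogenase genes. Nuclear genes of small subunits are short, and coding length moved with the labeled values. At 24 min 18 of the 23 members under 500 bases (78.3%) and 2 of the 17 longer members (11.8%) were lower in def1Δ. Among all other genes 31.3% of the short ones and 8.44% of the longer ones were lower. The median log2 fold change was −1.35 for short members, −0.86 for other short genes, −0.28 for longer members and 0.24 for other longer genes. The part that length played in the members' values was not tested. In steady-state RNA the medians were −0.84 for short members and −0.60 for longer ones, and −0.38 and 0.08 for other short and longer genes.

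**Figure D3:**
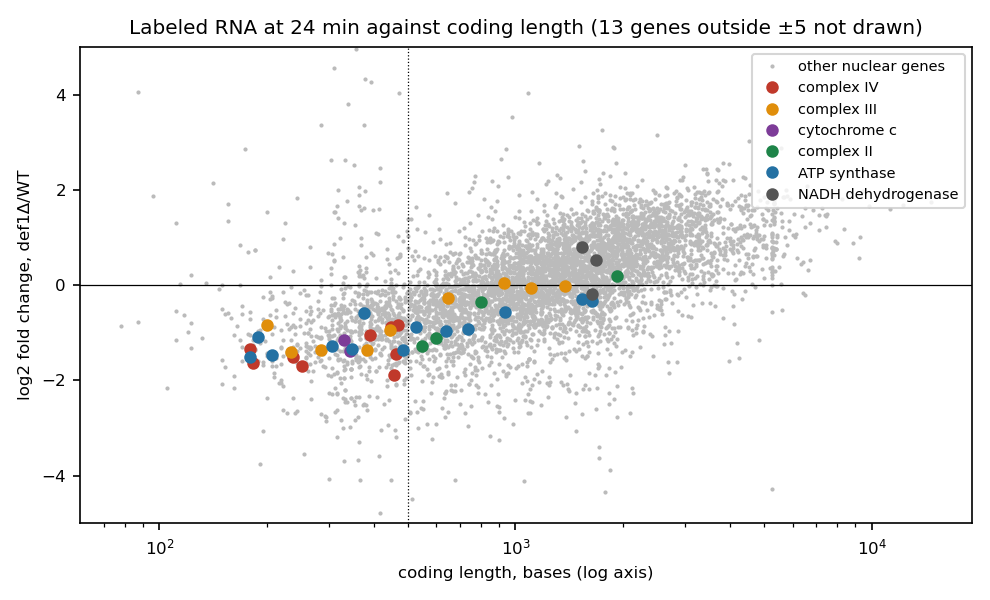
Log2 fold change of labeled RNA at 24 min, def1Δ over WT, against coding length in bases on a log axis; colored points are the 40 members by complex, gray points all other nuclear genes, and the dotted line marks 500 bases. Of the members left of the line 18 of 23 were lower by the test, against 2 of 17 right of it.

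The ratio of 6 to 90 min labeled RNA was next taken within each strain. A transcript with fast turnover reaches its plateau sooner and so has a higher 6 to 90 min ratio than one with slow turnover, and the ratio is read relative to all genes. In def1Δ 26 of the 40 had a lower ratio by the test and 0 a higher one, against 18.9% and 19.9% of all genes; in WT 27 had a lower ratio and 1 a higher one, against 11.1% and 10.8%. The medians were −1.41 in def1Δ and −1.31 in WT, with 0.12 and 0.16 for all genes. This ratio also moved with coding length. In def1Δ it was lower by the test for 87% of the 23 members under 500 bases and 35.3% of the 17 longer ones. Among other genes it was lower for 46.1% of the short and 15.4% of the longer ones. In WT these shares were 91.3%, 35.3%, 35.9% and 6.56%. The part that length played in the members' ratios was not tested. With library totals in place of TMM, 7 of the 40 had a lower ratio in WT, against 4.74% of genes. The ratio was lower in both strains for 23 of the 40, against 9.39% of all genes: 8 of ATP synthase, 7 of complex IV, 4 of complex III, both of cytochrome c and the 2 membrane anchors of complex II.

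QCR7, a small subunit of complex III, had 56.7 and 55.4 CPM after 6 min and 273 and 269 CPM after 90 min in def1Δ, and 96.3 and 123 CPM after 6 min and 490 and 491 CPM after 90 min in WT. Its 6 min level in WT was 4.47-fold lower than that at 90 min (−2.16 ± 0.17, adjusted p = 3.3e-08), the lowest ratio of the 40 in WT, followed by ATP15, the epsilon subunit gene (3.82-fold lower, adjusted p = 4.3e-06), and CYC7 (3.74-fold lower, adjusted p = 0.00061). The lowest ratios in def1Δ were those of CYC7 (6.02-fold lower, −2.59 ± 0.32, adjusted p = 1.5e-06), COX5B (5.58-fold lower, adjusted p = 1.2e-07) and COX7 (4.96-fold lower, adjusted p = 1.5e-05). NDI1 had 226 and 222 CPM after 6 min and 139 and 125 CPM after 90 min in def1Δ, and 189 and 184 CPM after 6 min and 70.8 and 64.7 CPM after 90 min in WT, where it was the gene with a higher ratio (2.75-fold higher at 6 min, 1.46 ± 0.16, adjusted p = 1.4e-06). CYC7 in WT lost its call without WT 6 min replicate 1 (−1.65).

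The difference of the 6 to 90 min ratio between strains passed the test for 0 of the 40 in either direction, against 3.29% of all genes with a higher and 5.83% with a lower ratio in def1Δ. By an unadjusted p under 0.05, 13 of the 40 differed, against 40.7% of genes, and DESeq2 called 0 in either direction as well. The differences ran from −1.98 for NDE2 (± 0.63 SE, adjusted p = 0.026) to 0.82 for NDE1 (adjusted p = 0.0015, under 2-fold), so the 2 outer NADH dehydrogenase genes lay at the ends of the range. With library totals 9 of the 40 had a lower ratio in def1Δ, against 19.3% of genes, and with the spike-in factors 8 of the 40, against 21.2%.

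In the input RNA of ribosome profiling, most of the 40 transcripts stood higher in def1Δ cells than in WT cells, few of them past the test. Of the 40, 4 rose and 0 fell in def1Δ, against 5.8% and 4.07% of 6434 genes. The median log2 fold change was 0.42, against −0.01 for all genes, and 38 of the 40 stood above 0. By an unadjusted p under 0.05, 19 differed, against 49.9% of genes, and DESeq2 called 0 lower as well. All 3 def1Δ libraries stood above all 3 WT libraries for 16 of the 40 and below for 0, and 24.8% of all genes stood above. At any size with an adjusted p under 0.05, 16 rose and 0 fell, against 21.8% and 18.6% of genes. The 40 took 1.03% to 1.21% of counts in def1Δ and 0.792% to 0.868% in WT. Without WT replicate 3, and likewise without def1Δ replicate 1, 2 of the 40 rose.

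CYC7 rose most, with 82.7, 77.4 and 44.9 CPM in def1Δ and 19.6, 16.8 and 10.3 CPM in WT (4.35-fold, 2.12 ± 0.29 SE, adjusted p = 0.00029, n = 3 libraries per strain in edgeR's quasi-likelihood test). NDE2 had 9.22, 10.7 and 12.3 CPM in def1Δ and 2.98, 3.94 and 3.10 CPM in WT (3.2-fold, 1.68 ± 0.17, adjusted p = 5.2e-05). In neither gene did the strains overlap. NDI1 had 353, 325 and 237 CPM in def1Δ and 148, 172 and 110 CPM in WT (2.13-fold, 1.09 ± 0.19, adjusted p = 0.0012), a call lost without WT replicate 3 (0.91) or without def1Δ replicate 1 (0.97). ATP14, subunit h of ATP synthase, had 66.0, 40.9 and 41.3 CPM in def1Δ and 28.7, 15.9 and 18.1 CPM in WT (2.36-fold, 1.24 ± 0.25, adjusted p = 0.0035); its rise lost the call without WT replicate 2 (1.04), without WT replicate 3 (1.12) or without def1Δ replicate 1 (0.97).

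COX5A, the gene with the lowest ratio in steady-state RNA, had 197, 246 and 218 CPM in def1Δ input RNA and 153, 305 and 186 CPM in WT, so its libraries overlapped. COX4 had 144, 144 and 149 CPM in def1Δ and 113, 147 and 116 CPM in WT, which also overlapped. CYC1 had 149, 130 and 109 CPM in def1Δ and 82.9, 151 and 107 CPM in WT. COX5A was 3.81, 4.62 and 6.36 times COX5B per base in def1Δ and 3.64, 7.79 and 6.11 times in WT, so the ratio of this pair did not separate the strains here. CYC1 was 1.86, 1.74 and 2.51 times CYC7 per base in def1Δ and 4.39, 9.34 and 10.7 times in WT, so CYC7 made up 34.9%, 36.5% and 28.5% of cytochrome c transcripts in def1Δ and 18.6%, 9.67% and 8.52% in WT.

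**Figure D4:**
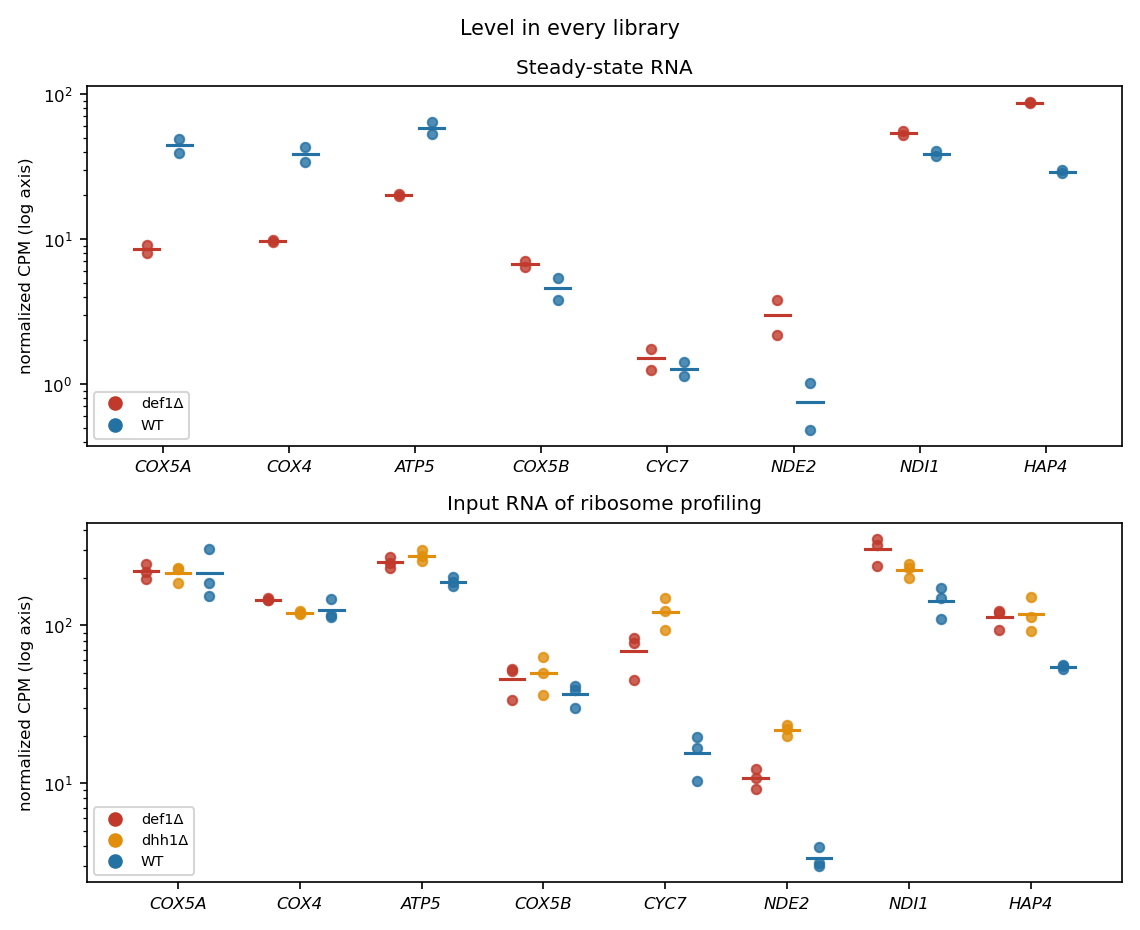
Levels in CPM on a log axis of 8 genes (COX5A, COX4, ATP5, COX5B, CYC7, NDE2, NDI1 and HAP4), a point per library, in steady-state RNA (def1Δ left of WT) and in input RNA (def1Δ, dhh1Δ, then WT). In steady-state RNA COX5A, COX4 and ATP5 stand lower in def1Δ than in WT without overlap, and COX5B, NDE2, NDI1 and HAP4 stand higher. In input RNA ATP5, CYC7, NDE2, NDI1 and HAP4 stand higher in def1Δ than in WT without overlap.

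The def1Δ effect in input RNA was set against that in steady-state RNA in a joint fit of both sets of libraries, chosen after the values were seen. The effect was higher in input RNA for 10 of the 40 and lower for 0, against 1.59% and 1.83% of 6460 genes, with a median difference of 1.21 on the log2 scale and −0.02 over all genes. These 10 were ATP3, ATP5, ATP7, ATP16 and ATP17 of ATP synthase, COX4, COX5A and COX8 of complex IV, QCR2 of complex III and SDH2 of complex II. COX4 differed by 2.18 ± 0.23 (adjusted p = 0.00025) and COX5A by 2.39 ± 0.37 (adjusted p = 0.0023). Without WT steady-state replicate 1, def1Δ steady-state replicate 1 or def1Δ steady-state replicate 2, 6, 5 and 4 of the 40 passed, and COX5A lost its call in each case (2.22, 2.30 and 2.5).

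For ATP3, the gamma subunit gene, steady-state RNA held 22.7 and 24.3 CPM in def1Δ and 58.0 and 56.4 CPM in WT, while input RNA held 364, 342 and 383 CPM in def1Δ and 259, 267 and 234 CPM in WT (difference 1.79 ± 0.18, adjusted p = 0.00023). For ATP5, steady-state RNA held 19.8 and 20.4 CPM in def1Δ and 63.8 and 53.2 CPM in WT, while input RNA held 231, 249 and 272 CPM in def1Δ and 177, 188 and 203 CPM in WT (difference 1.93 ± 0.20, adjusted p = 0.00025). For both genes def1Δ stood below WT in every steady-state library and above WT in every input library. Growth in the same medium was stated for both, and the experiments differed at least in the cycloheximide treatment, the way cells were broken and the library totals. They also differed in the deposited counts (RSEM estimates for steady-state RNA, whole counts for input RNA) and in the mitochondrial transcripts. The 8 mitochondrial genes summed to 1580 to 1710 CPM in def1Δ and 3530 to 3710 CPM in WT in steady-state RNA. In input RNA they summed to 385 to 594 CPM in def1Δ and 454 to 579 CPM in WT. The part of these differences between the experiments was not tested.

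**Figure D5:**
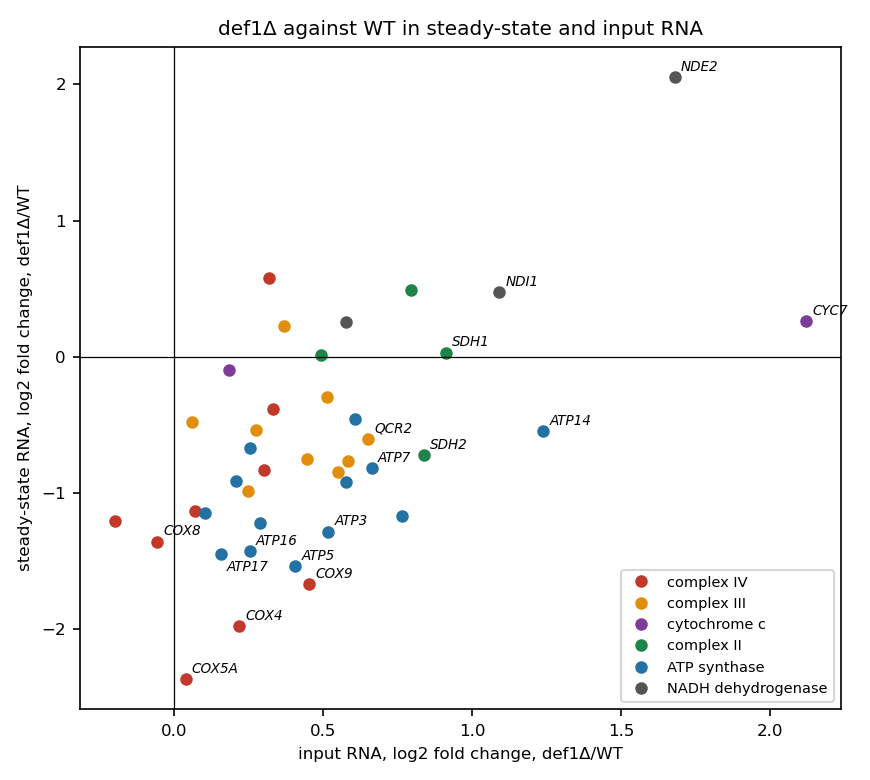
Log2 fold change of def1Δ over WT in steady-state RNA (vertical axis) against that in input RNA (horizontal axis) for the 40 genes, colored by complex. ATP synthase genes and complex IV genes other than COX5B lie below 0 on the vertical axis; on the horizontal axis ATP synthase genes lie above 0, as do complex IV genes other than COX8 and COX12, and NDE2 lies above 0 on both.

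Of the 40 transcripts in input RNA labelled dhh1Δ, 3 rose and 0 fell, against 6.42% and 2.61% of 6434 genes, with a median of 0.47 against −0.01 for all genes; 22 differed by an unadjusted p under 0.05, against 46.7% of genes, and DESeq2 called 0 lower. All 3 dhh1Δ libraries stood above all 3 WT libraries for 23 of the 40, against 26.2% of genes. At any size, 18 rose and 0 fell, against 20.4% and 16.7% of genes. This comparison shares its WT libraries with that of def1Δ.

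CYC7 had 149, 124 and 93.0 CPM in dhh1Δ and 19.6, 16.8 and 10.3 CPM in WT (7.76-fold, 2.96 ± 0.29, adjusted p = 3.8e-05). NDE2 had 22.1, 23.5 and 19.9 CPM in dhh1Δ and 2.98, 3.94 and 3.10 CPM in WT (6.51-fold, 2.70 ± 0.18, adjusted p = 2.4e-06). These were the largest rises of the 40, and every dhh1Δ library stood above every WT library. ATP14 had 48.1, 47.0 and 35.8 CPM in dhh1Δ and 28.7, 15.9 and 18.1 CPM in WT (2.08-fold, 1.06 ± 0.25, adjusted p = 0.0083), a call lost in 5 of the 6 fits that left out a library of either strain (0.87 to 1.17). CYC1 had 120, 100 and 124 CPM in dhh1Δ and 82.9, 151 and 107 CPM in WT, so CYC7 made up 54.6%, 54.4% and 42.1% of cytochrome c transcripts per base in dhh1Δ. NDE1 was 21.9 to 29.2 times NDE2 per base in dhh1Δ, 73.9 to 89.6 times in def1Δ and 141 to 243 times in WT, so the scarcer gene took a larger share in both mutants.

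Ribosome footprints, which count ribosomes on the messages, gave 3 of the 40 higher in def1Δ and 0 lower, against 6.46% and 4.09% of 5601 genes, with a median of 0.17 and 0.01 over all genes. By an unadjusted p under 0.05, 12 differed, against 48.8% of genes, and DESeq2 called 0 lower. At any size 12 rose and 0 fell, against 19.3% and 20.5% of genes. CYC7 had 45.5, 36.7 and 37.4 CPM in def1Δ and 10.0, 14.7 and 9.49 CPM in WT (3.47-fold, 1.79 ± 0.19, adjusted p = 8.7e-05). NDI1 had 210, 228 and 156 CPM in def1Δ and 77.0, 93.6 and 69.0 CPM in WT (2.47-fold, adjusted p = 0.00032). These columns did not overlap between strains for either gene. SDH1 had 299, 311 and 265 CPM in def1Δ and 155, 155 and 119 CPM in WT (2.04-fold, 1.03 ± 0.14, adjusted p = 0.0004), and lost the call without WT column 3 (0.89) or def1Δ column 2 (0.98). COX5A had 232, 239 and 255 CPM in def1Δ and 197, 308 and 232 CPM in WT, which overlapped as in input RNA.

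In the dhh1Δ footprint columns, given as values, CYC7 had 79.8, 73.7 and 56.2 CPM and NDE2 7.17, 6.01 and 5.07 CPM, against 10.0, 14.7 and 9.49 CPM and 2.00, 0.917 and 1.08 CPM in WT. All 3 dhh1Δ columns stood above all 3 WT columns for 23 of the 40 and below for 1, NDE1, against 22.5% and 23.1% of genes.

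Translational efficiency, the footprint effect relative to the input RNA effect in a joint fit, changed in def1Δ for 0 of the 40 in either direction, against 0.140% of 6423 genes higher and 0.0156% lower. By an unadjusted p under 0.05, 2 of the 40 differed, against 15.2% of genes, and DESeq2 called 0 as well. The lowest value was that of ATP19, −1.05 ± 0.52 (adjusted p = 0.35).

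Other genes of the pathway were taken from lists by role. Their counts here and in the paragraphs below are to be read against the shares of all genes given above for the same comparison. Among 9 regulators, 3 rose and 0 fell in def1Δ steady-state RNA, 5, 5, 3 and 6 rose and 0 fell at 6, 9, 24 and 90 min of labeling, and 1 rose in def1Δ input RNA, in dhh1Δ input RNA and in def1Δ footprints. HAP4, the regulated activating subunit of the Hap2/3/4/5 factor, had 87.5 and 87.1 CPM in def1Δ steady-state RNA and 28.3 and 29.7 CPM in WT (1.59, adjusted p = 6.6e-05). After 6 min of labeling it had 557 and 571 CPM in def1Δ and 145 and 151 CPM in WT (1.93, adjusted p = 3.4e-08). In input RNA it had 124, 120 and 93.0 CPM in def1Δ and 55.0, 52.7 and 56.4 CPM in WT (1.04, adjusted p = 0.0011), and in footprints 92.0, 118 and 108 CPM in def1Δ and 39.2, 50.7 and 63.7 CPM in WT. HAP4 was thus higher in def1Δ in all of these libraries, and whether its level bore on that of the 40 was not tested. ROX1, the repressor of low-oxygen genes, had 43.8 and 52.5 CPM in def1Δ steady-state RNA and 21.2 and 25.7 CPM in WT (1.04, adjusted p = 0.00094). PUF3, whose protein binds messages of mitochondrial proteins, rose as well (1.27, adjusted p = 0.00071), and HAP1, the heme-responsive activator, had 62.3 and 68.7 CPM in def1Δ and 57.6 and 71.7 CPM in WT.

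In steady-state RNA the members with CCAAT in the searched window had a median log2 fold change of −0.82 (35 genes) and those without it 0.22 (5 genes). These 5 ran from COX4 (−1.98) through CYC1, CYT1 and CYC7 to NDE2 (2.05). In labeled RNA the medians with and without CCAAT were −0.72 and −0.53 at 6 min and −0.91 and −0.88 at 9 min. They were −1.06 and −0.83 at 24 min and −0.85 and −0.37 at 90 min. With and without the longer TNATTGGT form the steady-state medians were −0.76 and −0.78.

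Most assembly factors did not pass the test in steady-state RNA, as most genes did not, and whether they differed from the subunits was not tested. Of 30 complex IV assembly and translation factors 2 rose and 0 fell in def1Δ (SHY1, 1.12, and COX14, 1.04), of 12 for complex III and cytochrome c 2 rose and 0 fell (the heme lyase genes CYT2, 1.10, and CYC3, 1.08), and of 4 for complex II 1 rose (SDH5, 1.43). At 6, 9 and 24 min 5, 6 and 4 of the 30 complex IV factors fell, and at 90 min 4 rose and 1 fell. Among 14 assembly factors and inhibitors of ATP synthase 1 rose and 2 fell, INH1 and TIM11. TIM11, which encodes the e subunit of the dimeric enzyme, had 7.78 and 8.52 CPM in def1Δ and 16.1 and 17.3 CPM in WT (−1.03, adjusted p = 0.0014). STF1 and INH1 encode related inhibitor proteins of the ATPase: STF1 had 3.74 and 4.03 CPM in def1Δ and 0.71 and 0.968 CPM in WT (2.18, adjusted p = 0.0018), and INH1 had 1.35 and 3.50 CPM in def1Δ and 11.4 and 7.34 CPM in WT (−1.87, adjusted p = 0.0047). In footprints INH1 stood the other way, with 101, 111 and 112 CPM in def1Δ and 74.4, 90.9 and 68.4 CPM in WT.

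Of 12 carriers and other electron donors 3 rose and 1 fell in def1Δ steady-state RNA. CYB2, the lactate dehydrogenase that passes electrons to cytochrome c, had 47.5 and 53.4 CPM in def1Δ and 3.85 and 3.63 CPM in WT (3.75, adjusted p = 3.2e-06). GUT2, the mitochondrial glycerol-3-phosphate dehydrogenase, had 76.1 and 83.7 CPM in def1Δ and 14.5 and 19.3 CPM in WT (2.24, adjusted p = 5.4e-05). The fall was that of MIR1, the mitochondrial phosphate carrier, with 243 and 241 CPM in def1Δ and 652 and 469 CPM in WT (−1.21, adjusted p = 0.001). PET9, the main ADP/ATP carrier, had 197 and 170 CPM in def1Δ and 407 and 323 CPM in WT (−0.9956, short of the 2-fold limit). CYB2 also rose in def1Δ input RNA (2.10), dhh1Δ input RNA (2.20) and def1Δ footprints (2.85). Of 10 ubiquinone synthesis genes 0 passed in steady-state RNA, and of 8 heme synthesis genes 2 fell (HEM1, −1.27, and HEM3, −1.08). Among 3 paralogs of complex II subunits 0 passed in steady-state RNA, SHH4 fell in def1Δ input RNA (−1.03) and SHH3 rose in dhh1Δ input RNA (2.81).

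In def1Δ against WT, 10 of the 40 never passed the test in steady-state RNA, labeled RNA, input RNA or footprints, in either direction. Of the 5479 genes tested in all of these comparisons, 39.3% never passed. The 10 were ATP2, ATP4 and ATP7 of ATP synthase, COR1, CYT1, QCR2 and QCR6 of complex III, COX6 of complex IV, SDH2 of complex II and NDE1. Of them QCR2, SDH2 and ATP7 did pass in the joint fit of input and steady-state RNA. Per kilobase of coding length, the 40 ran from NDE2 to ATP2 in both strains of the steady-state experiment, from 1.83 to 490 CPM in def1Δ and from 0.457 to 928 CPM in WT, with medians of 46.6 CPM in def1Δ and 71.1 CPM in WT.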

How the data were processed

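The authors deposited RSEM estimated counts per gene for steady-state and RATE-Seq RNA, from rRNA-depleted stranded libraries aligned with STAR to sacCer3 (R64; RSEM 1.2.28), and whole counts per gene for input RNA and footprints; the submitters' processing notes also list FastQC, HISAT2, featureCounts and DESeq2, and which of these made the deposited counts of the profiling tables is not given in the sources used here. All 4 tables were used, and 0 columns of per-sample values were left out. Estimated counts were rounded to whole numbers.

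Genes that reached 15 counts, summed over the libraries compared, entered each fit, made with edgeR 4.0.16 (TMM scaling, quasi-likelihood test, Benjamini-Hochberg adjustment, limma 3.58.1, R 4.3.3). A change was called at an adjusted p under 0.01 and more than 2-fold, the study's cutoffs. CPM were scaled by TMM, so levels are relative to the other yeast RNAs. Labeled libraries entered 1 fit of strain by time, and the 9 input libraries 1 fit of strain. SE belong to the log2 fold change. The fit was tested on simulated data.

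Alternatives were DESeq2 1.42.0, library totals, a minimum of 1 count, an adjusted p under 0.05 at any size, each library left out, a replicate block, fits of 1 labeling time, and spike-in factors recovered as the deposited counts over the part of the study's normalized reads at hand. Named are the isoform pairs and NADH dehydrogenases, up to 3 called members per direction and comparison, up to 2 called genes per list, HAP1, HAP4, ROX1, DEF1 and DHH1; other values were named after they were seen. The members and lists were chosen with earlier results of these data known. Motifs were searched in the RefSeq R64 genome with Python 3.11.15. The labels number replicates without naming separate cultures for the profiling samples, so p-values measure the spread between these libraries, which may be technical there.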

Additional observations from a re-analysis of the deposited data

Results flagged for a closer look

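Of the 40 genes, 6 had both def1Δ steady-state libraries below both WT libraries, all 3 def1Δ input libraries above all 3 WT libraries, and a difference between these effects that passed the test, against 0.605% of 5781 genes. The def1Δ effect in input RNA minus that in steady-state RNA was 1.24 for QCR2, 1.55 for SDH2, 1.79 for ATP3, 1.93 for ATP5, 1.47 for ATP7 and 1.67 for ATP16, on the log2 scale. QCR2 had 37.5 and 35.1 CPM in def1Δ and 56.3 and 53.9 CPM in WT steady-state RNA, and 385, 424 and 389 CPM in def1Δ and 225, 319 and 220 CPM in WT input RNA. SDH2 had 45.2 and 43.9 CPM in def1Δ and 74.5 and 72.5 CPM in WT steady-state RNA, and 208, 210 and 193 CPM in def1Δ and 109, 136 and 96.8 CPM in WT input RNA. ATP7, a stalk subunit gene, had 25.4 and 20.8 CPM in def1Δ and 43.0 and 38.2 CPM in WT steady-state RNA, and 231, 260 and 222 CPM in def1Δ and 145, 168 and 138 CPM in WT input RNA. ATP16 had 32.1 and 31.4 CPM in def1Δ and 88.7 and 81.8 CPM in WT steady-state RNA, and 209, 202 and 208 CPM in def1Δ and 177, 193 and 150 CPM in WT input RNA.

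The dhh1Δ footprint columns, which entered no test, stood above all WT columns for 23 of the 40 genes, among them all 4 complex II genes, CYC7 and NDE2.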

How the results depend on the processing

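With the spike-in factors 0 of the 40 fell in steady-state RNA, 5 fell and 1 rose at 6 min, 1 rose at 9 min, 0 fell and 4 rose at 24 min, 0 fell and 12 rose at 90 min, and 8 had a lower 6 to 90 min ratio in def1Δ than in WT. With library totals 19 fell and 1 rose in steady-state RNA, 2 fell and 3 rose at 90 min, 7 had a lower and 2 a higher 6 to 90 min ratio in WT, and 9 had a lower ratio in def1Δ than in WT. DESeq2 gave 1 rise in steady-state RNA and 19 genes with a higher def1Δ effect in input RNA, and a minimum of 1 count gave 1 rise in steady-state RNA. At an adjusted p under 0.05 and any size, 25 fell and 3 rose in steady-state RNA, 27 and 1 at 6 min, 28 and 2 at 9 min, 32 and 2 at 24 min, and 27 and 5 at 90 min; 2 had a higher 6 to 90 min ratio in def1Δ and 2 in WT, and 7 a lower and 5 a higher ratio in def1Δ than in WT; 16 rose in def1Δ input RNA, 18 in dhh1Δ input RNA and 12 in footprints, and 21 had a higher def1Δ effect in input RNA. Leaving out 1 library gave 6 to 15 falls and 0 to 1 rise in steady-state RNA, 8 to 19 falls and 0 to 1 rise at 9 min, 0 to 2 rises at 90 min, 0 to 1 lower ratio in def1Δ than in WT, 2 to 4 rises in def1Δ input RNA, and 4 to 15 genes with a higher def1Δ effect in input RNA. The cause of these shifts was not tested.

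Deviations of same-numbered libraries correlated at 0.0147 in steady-state RNA and 0.0179 to 0.165 in labeled RNA. In input RNA they correlated at 0.346, 0.0997 and 0.404 for def1Δ with WT, and 5 of these 6 libraries lay closest to their own number. For dhh1Δ with WT they correlated at 0.146, −0.46 and 0.277, and for def1Δ with dhh1Δ at 0.527, −0.27 and 0.434. Whether the numbers pair the input libraries was thus not settled, and the main fits did not pair them. With the replicate block 2 rose at 90 min, 0 rose and 12 fell in steady-state RNA, and 27 had a lower 6 to 90 min ratio in def1Δ; no other count moved by over 1.5 times. No paired analysis was possible for footprints because their columns carry no sample number. Among the called isoform and NADH dehydrogenase genes and the up to 3 called genes per direction and comparison, 418 alternative values kept their call, 42 lost it and 1 changed sign, that of COX5A at 90 min with the spike-in factors (0.0198). The scarcest values rested on few reads: in steady-state RNA NDE2 had 21 and 50 counts in def1Δ and 10 and 6 counts in WT, and CYC7 12 and 23 counts in def1Δ and 14 counts in each WT library.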

Other observations

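At 12 min of labeling, with 1 library per strain and therefore no test, COX5A had 35.4 CPM in def1Δ and 137 CPM in WT, QCR10 had 15.8 CPM in def1Δ and 58.6 CPM in WT, and NDI1 had 222 CPM in def1Δ and 117 CPM in WT. The median log2 ratio of the 40 was −1.06 with a pseudocount of 1 CPM, against −0.02 for all genes.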
